A study of Mus musculus with 30 samples.

Results

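The B cell receptor and follicular B genes described here are 9 of the 24957 genes in each deposited expression table: Cd79a, Cd79b, Cd22, Ms4a1, Blk, Blnk, Btk, Fcer2a and Fcmr. They were chosen by name, and all 9 were measured in all 30 mouse libraries and passed the filter on low values in both tissues. Poly(A)-enriched RNA was sequenced in 18 spleen and 12 lymph node libraries. The mice were wild type (WT, of the inbred FVB strain according to the titles), lacked Padi2 (Pad2-/-) or lacked Padi4 (Pad4-/-); the deleted genes encode peptidylarginine deiminases, which turn arginine in proteins into citrulline. Of the spleen libraries, 3 per genotype were controls and 3 per genotype were from treatment with imiquimod, which activates the RNA sensor TLR7. Lymph nodes came from imiquimod-treated mice of the 3 genotypes, with 4 libraries each. One protocol label speaks only of imiquimod-treated mice, whereas the agent label marks 9 spleen libraries as controls; the agent label was followed. The sources used here give no age, dose, duration or knockout strain. Nothing states that replicates were separate animals, so a p-value sets a difference only against the spread among these libraries, which may be technical variation. The design compares the lymphoid organs of both knockouts with WT under TLR7 activation.

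The B cell antigen receptor is a membrane immunoglobulin that signals through a pair of partner chains, CD79A (Ig-alpha) and CD79B (Ig-beta), whose cytoplasmic tails carry tyrosine motifs. When antigen clusters the receptor, Src-family kinases such as BLK phosphorylate these tails, SYK is recruited, and the adaptor BLNK brings the kinase BTK to its substrate phospholipase C-gamma-2, which leads to calcium and NF-kappa-B signals. CD22 dampens this signal through the phosphatase SHP-1, and CD20, encoded by Ms4a1, is a membrane protein of mature B cells. Fcer2a (CD23, the low-affinity IgE receptor) and Fcmr (the Fc receptor for IgM) are carried at the surface by mature B cells, and CD23 is used in the mouse to tell follicular B cells from marginal zone B cells. Follicular B cells fill the B cell follicles of spleen and lymph node.

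Positions of the 9 genes are from RefSeq on GRCm38.p6, equivalent to mm10. Cd79a is at chr7:24897497-24901858 on the plus strand and Cd22 at chr7:30865404-30880342 on the minus strand. Ms4a1 (chr19:11249679-11266149) and Blnk (chr19:40928927-40994221) are both on the minus strand. Cd79b (chr11:106311341-106314562), Blk (chr14:63372837-63417187), Btk (chrX:134542334-134583628) and Fcer2a (chr8:3680280-3694174) are on the minus strand, and Fcmr (chr1:130865777-130880790) is on the plus strand. Cd22 overlaps exons of Gm29439 on the opposite strand, and Ms4a1 and Btk overlap 4930526L06Rik and Gm15154 on the opposite strand without shared exon bases. No source states whether reads were counted by strand, so values of Cd22 could hold reads of its partner.

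RefSeq promoter windows (GRCm38.p6) were matched for 6 of the 9 genes; Cd79b, Ms4a1 and Blk are named only. The 250 bases before the start are shown for Cd79a and Blnk, whose windows held a searched motif of B cell factors, and for Fcer2a (the first of 3 windows), the member that changed most with imiquimod. The windows of Btk and Cd22 lie inside the annotated gene, before an inner start, and are not shown. Capitals mark matches to the octamer ATTTGCAT, to the ETS core AGGAAGT or to the EBF core CCCNNGGG, searched on both strands; these motifs do not overlap one another in the windows shown, and they were chosen after the windows had been read. The windows are chr7:24897247-24897496 (plus strand), chr19:40994222-40994471 (minus strand) and chr8:3694175-3694424 (minus strand), each written 5′ to 3′ along the gene.
Cd79a: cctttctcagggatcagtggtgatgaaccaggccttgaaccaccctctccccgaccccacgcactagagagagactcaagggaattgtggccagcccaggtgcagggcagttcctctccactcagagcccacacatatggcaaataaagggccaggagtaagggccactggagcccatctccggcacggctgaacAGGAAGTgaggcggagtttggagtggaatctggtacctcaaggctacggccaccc
Blnk: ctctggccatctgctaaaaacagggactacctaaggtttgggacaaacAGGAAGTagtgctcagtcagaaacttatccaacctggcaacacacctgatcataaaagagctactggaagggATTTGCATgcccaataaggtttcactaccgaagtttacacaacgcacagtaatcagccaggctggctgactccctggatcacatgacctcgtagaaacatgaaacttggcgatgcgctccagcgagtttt
Fcer2a: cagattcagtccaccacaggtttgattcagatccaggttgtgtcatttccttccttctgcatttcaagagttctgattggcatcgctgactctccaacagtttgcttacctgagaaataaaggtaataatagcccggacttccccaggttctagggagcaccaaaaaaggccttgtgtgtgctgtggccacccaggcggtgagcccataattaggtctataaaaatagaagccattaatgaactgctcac
In the Cd79a window AGGAAGT begins at base -55 from the start; in the Blnk window AGGAAGT begins at base -202 and ATTTGCAT at base -130. Btk, all 3 windows of Fcer2a and the window of Fcmr held none of the 3 motifs in these letters, and Cd22 held CCCTGGGG at base -48, a form of the EBF core. Among 32817 windows of 300 bases over all genes, the octamer was in 1.74%, the ETS core in 9.35% and the EBF core in 13.7%. A match of letters is a description and not evidence of binding.

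RPKM is reads scaled by transcript length and by the library's mapped reads, so levels of different genes can be set side by side. In WT control spleen the order of mean RPKM was Cd79a (968 ± 125, SD, n = 3), Cd79b (722 ± 69.1), Ms4a1 (349 ± 11.3), Fcmr (210 ± 28.8), Cd22 (156 ± 7.57), Fcer2a (107 ± 7.27), Blnk (92.8 ± 6.01), Blk (90.8 ± 1.09) and Btk (39.8 ± 1.96). Both signalling chains of the receptor thus headed the list, and Btk stood last in all 3 control groups. The values of Blnk and Blk overlapped between libraries, as did those of Fcer2a and Blnk, whereas each other neighbour in this order was separated from the next in every WT control library. In the lymph nodes of imiquimod-treated WT mice the order of means was the same for the first 5 genes and for Btk; Blnk stood sixth, Fcer2a seventh and Blk eighth.

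Of the B cell markers outside the 9, Pax5, Ebf1 and Spib, none was below 0.1 RPKM in every library of any group. Together with Cd79a, Cd79b and Ms4a1, which are among the 9, they summed to 2141 to 2561 RPKM in WT control spleens. These genes were taken as B cell markers and do not tell spleen from lymph node. Whether other cells add to their values was not tested. Library depth is unknown, since RPKM keeps no read numbers; the number of genes reaching 1 RPKM was 10905 to 12198. Padi2 was 0.468 to 1.20 RPKM in Pad2-/- spleens against 4.74 to 10.5 in WT spleens. Padi4 was 0.0693 to 0.259 RPKM in Pad4-/- spleens and 1.20 to 25.3 in WT spleens. In lymph node, WT libraries held Padi4 at 0.679 to 1.05 RPKM, and 2 of the 4 libraries labelled Pad4-/- went against that label, replicate 3 with 0.607 RPKM and replicate 4 with more than any WT node. They are therefore called the libraries labelled Pad4-/- throughout. Haemoglobin genes held 0.487% to 20.2% of the summed RPKM in spleen, and over 10% in 3 imiquimod libraries: Pad2-/- replicates 1 and 3 and Pad4-/- replicate 1.

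In WT spleen all 9 genes fell under imiquimod, from 1.31-fold for Btk to 3.89-fold for Fcer2a on the log2(RPKM + 0.5) scale. Differences were tested with limma on that scale (two-sided, Benjamini-Hochberg adjusted over 11982 genes, threshold 0.05), and 33.2% of all genes tested passed in the lower direction. The median log2 difference of the 9 was -1.45, against 0.06 over all genes tested. With quantile normalization, which moved the median of all genes by -0.19, 3922 genes were called higher and 5384 (44.9%) lower, against 4823 and 3984 as deposited, and all 9 genes still fell. In bulk RNA, fewer cells of a type and less RNA per cell cannot be told apart, here or in any comparison that follows.

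Cd79a was 1112, 886 and 906 RPKM in the WT control spleens and 449, 289 and 316 in the imiquimod spleens. Its log2 difference was -1.48 ± 0.22 (SE; adjusted p = 2.38e-05). Cd79b was 791, 653 and 723 RPKM in controls and 335, 231 and 234 under imiquimod, with a log2 difference of -1.45 ± 0.21 (adjusted p = 1.47e-05). Both receptor chains therefore moved by nearly the same amount, and in both the highest imiquimod library was below the lowest control.

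Among the signalling genes, Blk, the Src-family kinase, was 89.8, 90.8 and 91.9 RPKM in WT controls and 36.8, 26.6 and 23.1 under imiquimod, a log2 difference of -1.67 ± 0.29 (adjusted p = 0.000111). The adaptor Blnk was 99.7, 89.6 and 89.1 RPKM in controls and 64.3, 42.6 and 35.3 under imiquimod, a log2 difference of -1.01 ± 0.25 (adjusted p = 0.00177). Btk, which macrophages and other myeloid cells also express, was 41.4, 37.6 and 40.4 RPKM in controls and 31.8, 28.2 and 30.7 under imiquimod. Its log2 difference of -0.39 ± 0.14 (adjusted p = 0.0173) was the smallest of the 9, although the libraries of both groups did not overlap. The call for Btk was lost without WT control replicate 1 (-0.37, adjusted p = 0.0529) or WT imiquimod replicate 2 (-0.35, adjusted p = 0.0593).

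The inhibitory co-receptor Cd22 was 156, 164 and 148 RPKM in WT controls and 101, 59.7 and 65.5 under imiquimod, a log2 difference of -1.08 ± 0.27 (adjusted p = 0.00225). Ms4a1 was 359, 337 and 352 RPKM in controls and 174, 111 and 100.1 under imiquimod, a log2 difference of -1.48 ± 0.27 (adjusted p = 0.000155). Replicate 1 was the highest WT imiquimod library for all 9 genes.

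The follicular B surface genes fell too. Fcer2a was 108, 98.8 and 113 RPKM in WT controls and 38.2, 19.4 and 26.6 under imiquimod, the largest log2 difference of the 9 at -1.96 ± 0.20 (adjusted p = 5.84e-07). Fcmr was 239, 208 and 181 RPKM in controls and 87.2, 77.4 and 64.6 under imiquimod, a log2 difference of -1.45 ± 0.20 (adjusted p = 1.1e-05). For all 9 genes the WT control and imiquimod libraries were separate. The share of all genes with separate libraries is not given, here or in the comparisons that follow. Such separation describes only the genes named.

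**Figure D1:**
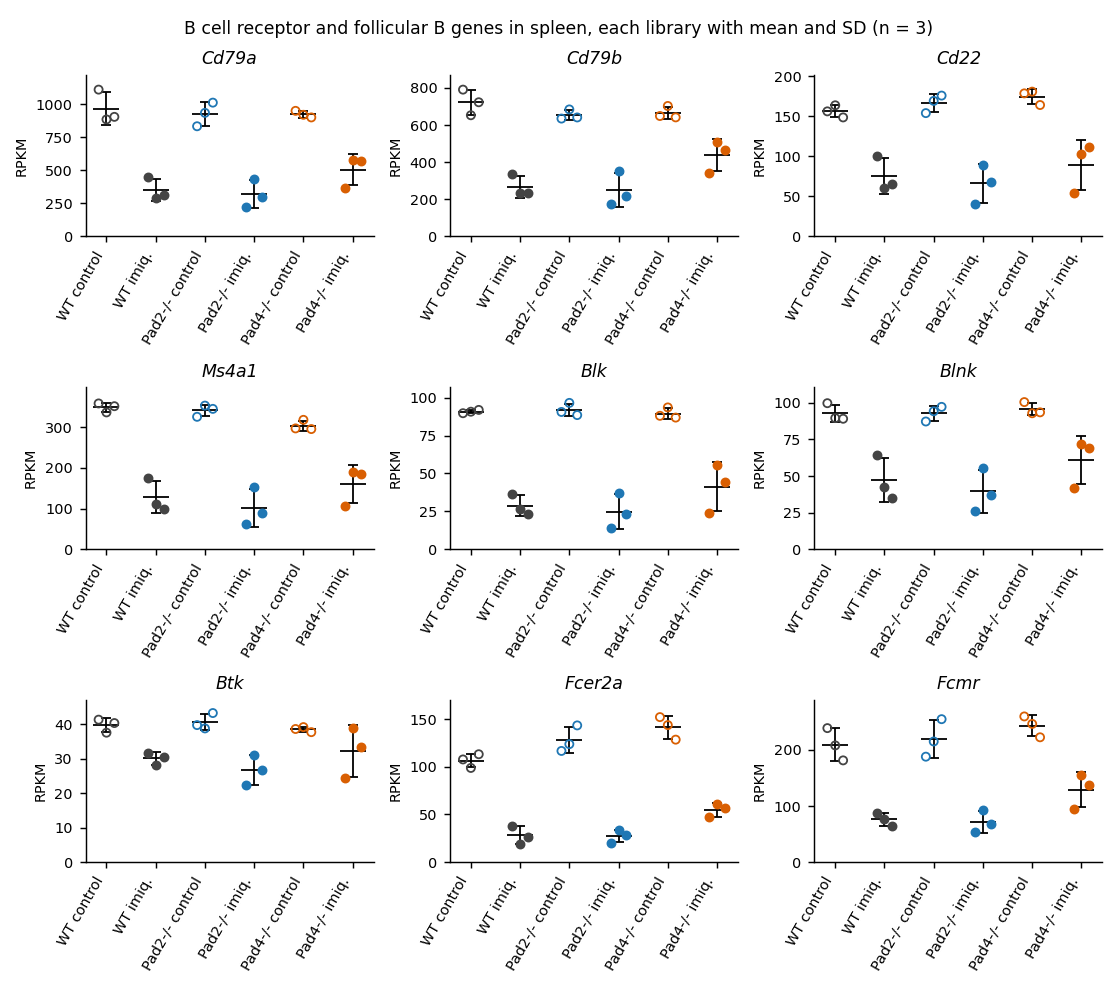
RPKM (y axis, linear from 0) of each gene in the 18 spleen libraries by genotype and agent; open points are control libraries, filled points imiquimod libraries, and the bar and whiskers the mean and SD of 3 libraries. Control libraries of WT overlap those of both knockouts, except for Fcer2a, higher in both, and for Cd22 (higher) and Ms4a1 (lower) in Pad4-/-. Mean imiquimod levels are lower, with Btk changing least.

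In Pad2-/- spleen all 9 genes also fell under imiquimod, where 36.7% of all genes tested passed in the lower direction. Fcer2a went from 117, 124 and 144 RPKM in controls to 20.3, 33.7 and 28.2, a log2 difference of -2.23 ± 0.20 (adjusted p = 2.27e-07). Cd79a went from 834, 936 and 1014 RPKM to 225, 438 and 302, a log2 difference of -1.58 ± 0.22 (adjusted p = 1.53e-05). Blk went from 90.6, 96.6 and 88.5 RPKM to 14.01, 37.3 and 23.1, a log2 difference of -1.98 ± 0.29 (adjusted p = 2.57e-05). The other log2 differences were -1.84 for Ms4a1, -1.63 for Fcmr, -1.45 for Cd79b, -1.39 for Cd22, -1.28 for Blnk and -0.61 for Btk (adjusted p = 0.00101 for Btk, the largest of the 9). Replicate 2 was the highest imiquimod library for every gene; haemoglobin held 1.57% of the summed RPKM there and over 10% in both others. All 9 calls held without those 2 libraries, where 1 Pad2-/- imiquimod library is left and is assumed to vary like the other groups, but Cd79b then differed by -0.90 and Blnk by -0.75 on the log2 scale. Leaving haemoglobin out of the totals refers to the summed RPKM, since the mapped reads are not known. With that setting the split of all genes went from 4348 higher and 4395 lower to 5407 and 3453, and all 9 genes still fell.

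In Pad4-/- spleen 8 of the 9 genes fell, where 36.1% of all genes tested passed in the lower direction, and the median log2 difference of the 9 was -0.94. Fcer2a went from 152, 144 and 129 RPKM in controls to 47.0, 60.6 and 56.8 under imiquimod, a log2 difference of -1.37 ± 0.20 (adjusted p = 3.05e-05). Cd79b went from 649, 703 and 641 RPKM to 341, 506 and 464, a log2 difference of -0.62 ± 0.21 (adjusted p = 0.0143). Cd79a went from 951, 921 and 901 RPKM to 367, 577 and 571, a log2 difference of -0.90 ± 0.22 (adjusted p = 0.00206). The imiquimod libraries of these 3 genes lay below the controls throughout.

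The other genes that fell in Pad4-/- spleen had log2 differences of -1.18 (Blk), -1.03 (Cd22), -0.96 (Ms4a1), -0.94 (Fcmr) and -0.69 (Blnk). Btk was 38.7, 39.2 and 37.8 RPKM in controls and 24.3, 39.0 and 33.6 under imiquimod, and its log2 difference of -0.28 ± 0.14 did not pass (adjusted p = 0.082). Replicate 1, the library with 12.2% haemoglobin, was the lowest of its group for all 9 genes. Without it 6 of the 9 passed: Btk did not pass, and Cd79b (-0.45, adjusted p = 0.0833) and Blnk (-0.44, adjusted p = 0.133) no longer did. Blnk also missed the threshold without Pad4-/- control replicate 1 (-0.65, adjusted p = 0.0581), and Btk passed without imiquimod replicate 2 (-0.43, adjusted p = 0.0108). The responses of the genotypes were fitted from different controls, and their difference was tested separately below.

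**Figure D2:**
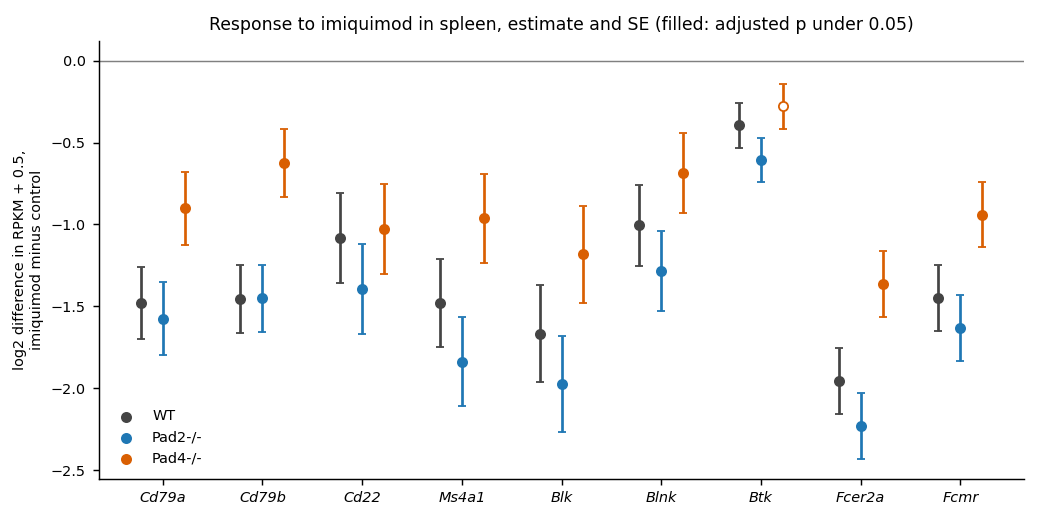
Log2 difference in RPKM + 0.5 between imiquimod and control spleens (y axis) of each gene in WT, Pad2-/- and Pad4-/- mice; points are limma estimates from 3 against 3 libraries, whiskers the SE, and filled points passed the threshold. Only Btk in Pad4-/- spleen, at -0.28, is open; Fcer2a is lowest in each genotype.

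Among control spleens none of the 9 genes passed between Pad2-/- and WT, where 0.142% of all genes tested passed, nor between Pad4-/- and WT, where 0.15% passed. None of the 9 had an unadjusted p under 0.05 in either comparison (limma), against 235 and 801 of the 11982 genes. The largest log2 difference was that of Fcer2a, 0.26 ± 0.20 in Pad2-/- and 0.41 ± 0.20 in Pad4-/- (adjusted p = 0.745 in Pad4-/-). The Fcer2a libraries of both knockouts, at 117 to 144 RPKM in Pad2-/- and 129 to 152 in Pad4-/- controls, were all above the WT range of 98.8 to 113. Pad4-/- and WT controls were also separate for Cd22 (means of 174 and 156 RPKM) and, with Pad4-/- lower, for Ms4a1 (304 and 349). In a fit of Pad4-/- and WT controls alone Fcer2a (adjusted p = 0.0186) and Ms4a1 (-0.20, adjusted p = 0.0344) passed, and with array weights Fcer2a passed (adjusted p = 0.0136).

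Under imiquimod, 3 of the 9 genes were higher in Pad4-/- than in WT spleen, where 1.58% of all genes tested passed in the higher direction. Fcer2a was 47.0, 60.6 and 56.8 RPKM in Pad4-/- and 38.2, 19.4 and 26.6 in WT, a log2 difference of 0.999 ± 0.20 (adjusted p = 0.012). Fcmr was 94.1, 155 and 137 RPKM in Pad4-/- and 87.2, 77.4 and 64.6 in WT, a log2 difference of 0.73 ± 0.20 (adjusted p = 0.041). Cd79b was 341, 506 and 464 RPKM against 335, 231 and 234, a log2 difference of 0.71 ± 0.21 (adjusted p = 0.0494). In each of the 3 genes the lowest Pad4-/- library was above the highest WT library, for Cd79b by a small margin. The call for Cd79b was lost with the replicate block (adjusted p = 0.0602) and with a pseudocount of 0.1 (adjusted p = 0.0507). The T cell marker sum stood apart too, at 290 to 365 RPKM in Pad4-/- and 215 to 287 in WT imiquimod spleens, without overlap. The sums of the other marker lists overlapped, that of B cells included. Under imiquimod the estimates were positive for all 7 T cell, all 7 plasma cell and all 6 germinal centre markers. They were negative for all 6 neutrophil and all 7 erythroid markers, and none passed the threshold. The mean erythroid sum was nevertheless higher in Pad4-/- (12528 against 9305 RPKM). The median estimate over all genes was -0.04, and the share of all genes with a positive estimate is not given. Control spleens already differed in the T cell sum, at 429 to 474 RPKM in Pad4-/- and 388 to 405 in WT. There too all 7 T cell estimates were positive and all 6 neutrophil estimates negative, while plasma cell, germinal centre and erythroid estimates were mixed. The part of these markers in the higher values of the 3 genes was not tested.

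The other 6 genes had positive log2 differences that did not pass, from 0.07 ± 0.14 for Btk to 0.52 ± 0.22 for Cd79a (adjusted p = 0.166), and their libraries overlapped; Btk turned to -0.08 without Pad4-/- imiquimod replicate 2. These calls rest on the fit and on single libraries. A fit of the 2 imiquimod groups alone gave the same differences with adjusted p from 0.291 (Fcer2a) to 0.294 (Fcmr and Cd79b), and none of the 9 passed. Without a filter on low values Fcer2a alone passed. Without WT imiquimod replicate 3 none passed (adjusted p = 0.0521 for Fcer2a, 0.186 for Fcmr and 0.203 for Cd79b). Fcer2a alone passed without Pad4-/- imiquimod replicate 2 or 3, and Cd79b was lost without WT imiquimod replicate 2 (adjusted p = 0.0997). Without the 3 libraries over 10% haemoglobin all 9 passed, from 0.26 for Btk to 1.10 for Fcer2a; that choice was made after seeing the data, and it removes knockout libraries only. Over all genes 189 were higher and 682 lower as deposited, against 429 and 406 with quantile normalization, 418 and 713 with median-ratio scaling, and 342 and 251 with haemoglobin left out of the totals.

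Whether the response to imiquimod itself differed from WT was tested as an interaction. None of the 9 passed for Pad4-/- (0.0668% of all genes tested passed) or for Pad2-/- (0.0334%). For Pad4-/- the estimates were positive for all 9, from 0.05 ± 0.39 for Cd22 to 0.83 ± 0.29 for Cd79b (adjusted p = 0.206), and Cd79b was the only one with an unadjusted p under 0.05; over all genes, 1729 had one. The estimates of Cd22 and Btk turned negative when single libraries were left out (lowest -0.14 and -0.03). For Pad2-/- they ran from -0.36 ± 0.38 for Ms4a1 to 0.00 ± 0.29 for Cd79b, none with an unadjusted p under 0.05, against 936 of all genes. Cd79b passed in the Pad4-/- interaction with array weights (0.81, adjusted p = 0.0275) and without the 3 libraries over 10% haemoglobin (1.0, adjusted p = 0.048).

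Pad2-/- and WT spleens under imiquimod did not differ past the threshold in any of the 9 genes (0.484% of all genes tested passed). The estimates ran from -0.39 ± 0.27 for Ms4a1 to -0.01 ± 0.20 for Fcer2a, the libraries of both groups overlapped for each gene, and none of the 9 had an unadjusted p under 0.05 (limma), against 1872 of all genes. The sign of these small differences depended on the setting: all 9 were positive under at least 1 alternative, and Ms4a1 passed with array weights (-0.62, adjusted p = 0.0129). The split of all genes also turned, from 18 higher and 40 lower to 65 and 5 with haemoglobin left out of the totals.

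The other genes of the B cell receptor pathway were read from 6 lists, chosen with earlier results of these data known. Of all genes tested, 33.2% fell and 40.3% rose in WT spleen, and the list counts are read against these shares. Of 2 co-receptor genes read here, Cr2 (complement receptor CD21) fell in WT spleen under imiquimod, with a log2 difference of -3.77 ± 0.45, while the tetraspanin Cd81 did not pass (-0.06 ± 0.11). Ighm and Ighd, also listed, were absent under these names from the genes of both tissues and so could not be analysed. Of 16 proximal kinases and adaptors, 8 fell and none rose, a share not far from that of all genes for the falls; Pik3r1 and Pik3cd, subunits of phosphoinositide 3-kinase, differed by -0.61 ± 0.08 and -0.78 ± 0.12, and the scaffold Bank1 by -1.10 ± 0.20. Lyn (0.02 ± 0.12), Plcg2 (0.00 ± 0.14) and Pik3ap1 (0.09 ± 0.13), which myeloid cells also use, did not pass.

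Of 7 distal signalling genes 5 fell in WT spleen, among them Malt1 (-1.50 ± 0.18), a protease that acts upstream of NF-kappa-B, and the protein kinase C gene Prkcb (-0.78 ± 0.16). Of 8 inhibitory receptors and phosphatases 4 fell and 2 rose, again not far from the shares of all genes. Siglecg, a B cell sialic acid receptor, differed by -2.19 ± 0.29, while Cd300a (2.01 ± 0.17) and Pirb (2.03 ± 0.18), inhibitory receptors that myeloid cells also carry, rose. Of 10 B cell identity factors 8 fell, with Ebf1 at -2.0 ± 0.28, Pax5 at -1.89 ± 0.32 and Foxo1 at -1.35 ± 0.23; the co-activator Pou2af1 did not pass (-0.12 ± 0.24). Of 11 genes of the mature follicular B surface 9 fell, led by Ralgps2 (-2.04 ± 0.27), the chemokine receptor Ccr7 (-1.84 ± 0.19) and H2-Ob (-1.73 ± 0.27). Apart from the 2 co-receptor genes, the list medians ran from -1.33 for the follicular surface genes to -0.16 for the proximal kinases and adaptors.

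In Pad2-/- spleen 1 of 2, 8 of 16, 5 of 7, 5 of 8, 9 of 10 and 10 of 11 genes of these lists, in the order above, fell, against 36.7% of all genes. In Pad4-/- spleen 1 of 2, 6 of 16, 5 of 7, 4 of 8, 8 of 10 and 8 of 11 fell, against 36.1% of all genes, which the proximal and inhibitory counts are near. Cd300a and Pirb rose in both, where 36.3% and 33.9% of all genes rose. Between Pad4-/- and WT spleens under imiquimod only 2 genes of the 6 lists passed, where 1.58% of all genes tested were higher. They were Id3 (1.20 ± 0.19, adjusted p = 0.00594), an inhibitor of E proteins, and Ccr7 (0.90 ± 0.19, adjusted p = 0.0131), both higher in Pad4-/-. Ccr7 guides lymphocytes to T cell zones and is also made by T cells. Far fewer of all genes passed in a fit of only those groups, and the calls of Id3 and Ccr7 there are not given.

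**Figure D3:**
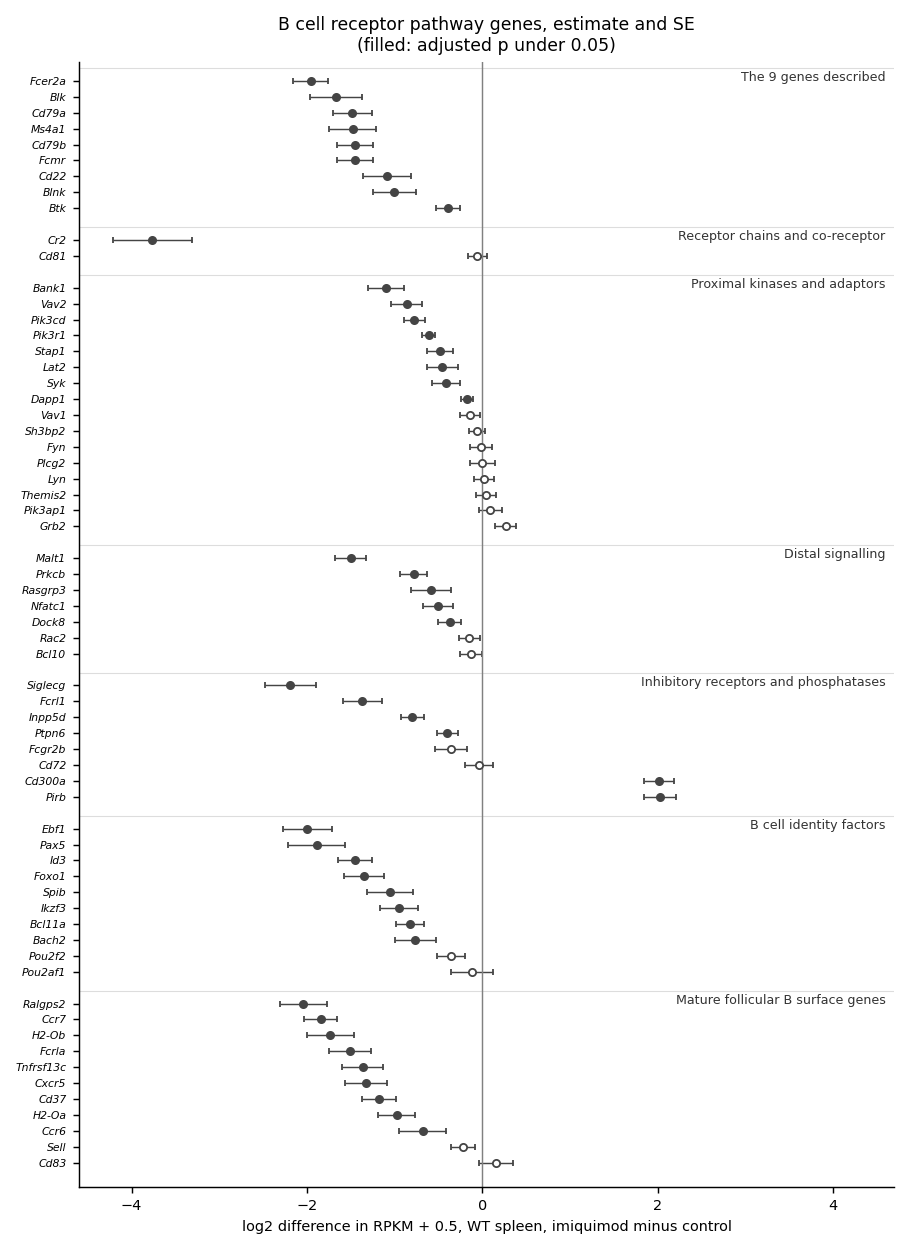
Log2 difference in RPKM + 0.5 between imiquimod and control in WT spleen (x axis) for the 9 genes and for 6 lists of other B cell receptor pathway and B cell genes; points are limma estimates (3 against 3 libraries), whiskers the SE, and filled points passed the threshold. Most filled points lie below 0, with Cr2 at -3.77 farthest and Cd300a and Pirb near 2.

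Markers of other cells moved with the 9 genes, beside 40.3% of all genes that rose and 33.2% that fell. Under imiquimod the summed RPKM of 8 macrophage and monocyte markers went from 126 to 136 in WT control spleens to 990 to 1533, with all 8 higher (limma, adjusted over all genes). The sum of 6 neutrophil markers went from 693 to 1169 to 4748 to 23074, and that of 7 erythroid markers from 933 to 1930 to 4276 to 17584, again with every member higher. None of the defining markers of these 3 lists was below 0.1 RPKM in every library of a group. Of 7 T cell markers all 7 fell, and their sum went from 388 to 405 in controls to 215 to 287.

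Other stages of the B lineage differed in direction, read against the same 40.3% of all genes that rose and 33.2% that fell. All 7 plasma cell markers rose, with a sum of 84.0 to 108 in WT controls and 488 to 1362 under imiquimod, and 5 of 6 germinal centre markers rose (15.02 to 16.8 against 30.5 to 81.4). Of 6 marginal zone markers 5 fell, Cd9 rose, and their sum went from 379 to 395 to 111 to 127; Cr2 is in this list and in the co-receptor list. Of 5 mast cell and basophil markers 4 rose (5.33 to 8.18 against 18.4 to 61.7), and of 5 plasmacytoid dendritic cell markers 2 rose and 3 fell (62.9 to 70.5 against 60.2 to 112). Of 4 measured follicular dendritic cell markers the 2 tested rose (3.32 to 5.47 against 16.8 to 46.6), with Serpina1e below 0.1 RPKM in every spleen library. The part of these changes in the fall of the 9 genes was not tested.

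Because the 9 genes fell together, each was also set against Cd79a of the same library, a ratio that barely depends on the scaling of that library. Most genes rise against a reference that fell, so the share of all genes that passed is high in that direction: 92.7% in WT, 94.3% in Pad2-/- and 71.2% in Pad4-/- spleen rose relative to Cd79a under imiquimod, and 0.543%, 0.384% and 1.54% fell. Fcer2a fell relative to Cd79a in all 3 genotypes, with log2 differences of -0.48 ± 0.17 in WT (adjusted p = 0.0113), -0.65 ± 0.17 in Pad2-/- (adjusted p = 0.00113) and -0.46 ± 0.17 in Pad4-/- (adjusted p = 0.0187). As a percent of Cd79a RPKM, Fcer2a was 9.69 to 12.5 in WT controls and 6.71 to 8.52 under imiquimod, 13.2 to 14.2 and 7.70 to 9.34 in Pad2-/-, and at least 14.3 and 9.96 to 12.8 in Pad4-/-. The groups did not overlap in any genotype.

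The fall of Fcer2a relative to other B cell genes depended on the reference and, in WT and Pad4-/-, on single libraries. Against the mean of Pax5, Ebf1 and Spib, a reference chosen after seeing the data, its differences were -0.31 in WT, -0.41 in Pad2-/- and -0.19 in Pad4-/-, with adjusted p of 0.211, 0.0986 and 0.451. The WT call was lost without control replicate 3 (-0.39, adjusted p = 0.0621) or imiquimod replicate 2 (-0.37, adjusted p = 0.0584). The Pad4-/- call was lost without control replicate 1 or 2 (adjusted p = 0.0645 and 0.0556) or imiquimod replicate 2 or 3 (adjusted p = 0.0574 and 0.0768).

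Btk rose relative to Cd79a, as did most genes, by 1.09 ± 0.17 in WT (adjusted p = 9.6e-06), 0.97 ± 0.17 in Pad2-/- and 0.62 ± 0.17 in Pad4-/- (adjusted p = 0.00376). With Cd79b as the reference the Pad4-/- rise was 0.35 and did not pass (adjusted p = 0.079). It went from 3.72% to 4.46% of Cd79a RPKM in WT controls to 7.08% to 9.76% under imiquimod. In WT, Blnk (0.48 ± 0.15, adjusted p = 0.00623) and Cd22 (0.40 ± 0.16, adjusted p = 0.0276) also rose relative to Cd79a, Cd22 not without WT control replicate 1 (0.29, adjusted p = 0.122), control replicate 3 (adjusted p = 0.0547) or imiquimod replicate 1 (adjusted p = 0.0583). Blk fell relative to Cd79a in Pad2-/- (-0.40 ± 0.18, adjusted p = 0.0429), a call lost without any 1 of 4 libraries (Pad2-/- control replicate 1 or 2, imiquimod replicate 1 or 3), with differences of -0.42 to -0.28 there, against Pax5, Ebf1 and Spib (-0.16, adjusted p = 0.443) and without the 3 libraries over 10% haemoglobin (-0.21, adjusted p = 0.375). Cd79b, Ms4a1 and Fcmr did not pass relative to Cd79a in any genotype, with differences of -0.26 to 0.28.

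Between knockout and WT spleens under imiquimod, none of the 8 genes passed relative to Cd79a for Pad2-/- (0.0584% of all genes passed; none of the 8 had an unadjusted p under 0.05, against 157 of all genes). For Pad4-/-, Fcer2a was higher (0.48 ± 0.17, adjusted p = 0.0383; 0.0501% of all genes higher) and Btk lower (-0.45 ± 0.17, adjusted p = 0.0472; 41.1% of all genes lower). As a percent of Cd79a RPKM, Fcer2a was 9.96 to 12.8 in Pad4-/- and 6.71 to 8.52 in WT, without overlap. Both calls were lost without WT imiquimod replicate 2 or 3 or Pad4-/- imiquimod replicate 2 or 3, where Fcer2a differed by 0.37 to 0.55 with adjusted p from 0.134 to 0.16, and that of Fcer2a also without Pad4-/- imiquimod replicate 1 (adjusted p = 0.0653). The call of Fcer2a was further lost with Cd79b as the reference (0.29, adjusted p = 0.11), with Pax5, Ebf1 and Spib (0.63, adjusted p = 0.36) and with the replicate block (adjusted p = 0.0603). That of Btk was lost with Pax5, Ebf1 and Spib (-0.30, adjusted p = 0.406) and with the replicate block (adjusted p = 0.076). Fcer2a was also at least 13.2% of Cd79a RPKM in every knockout control, above the WT control range.

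**Figure D4:**
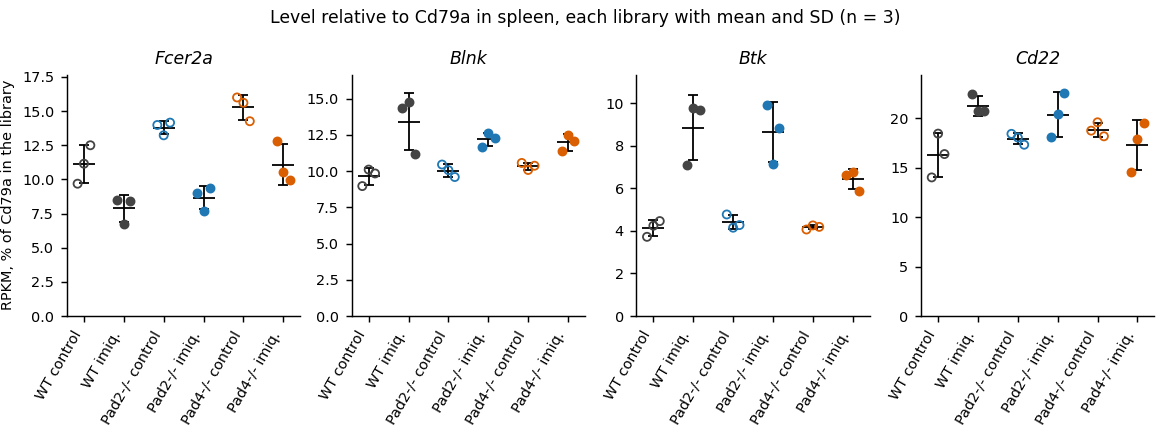
RPKM of Fcer2a, Blnk, Btk and Cd22 as a percent of Cd79a RPKM in the same spleen library (y axis, linear from 0) by genotype and agent; open points are control and filled points imiquimod libraries, with the mean and SD of 3 libraries. Fcer2a is lower and Btk higher under imiquimod in each genotype, Btk in WT going from 3.72 to 4.46 to 7.08 to 9.76.

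Of the 9 genes, none passed between Pad2-/- and WT lymph nodes under imiquimod, where 0.464% of all 12285 genes tested passed. All 9 estimates were negative, with a median log2 difference of -0.54 against -0.12 over all genes, and 6 had an unadjusted p under 0.05 (limma; 1459 of all genes had one). Fcmr was 59.6, 86.8, 96.4 and 68.9 RPKM in WT and 51.7, 68.2, 19.6 and 17.4 in Pad2-/- nodes, a log2 difference of -1.19 ± 0.37 (adjusted p = 0.251). Ms4a1 was 163, 159, 185 and 151 RPKM in WT and 105, 155, 85.4 and 55.5 in Pad2-/-, a log2 difference of -0.80 ± 0.27 (adjusted p = 0.309). In both genes Pad2-/- replicate 2 lay within the WT range and replicates 3 and 4 far below it.

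Fcer2a was 23.6, 63.6, 70.0 and 51.0 RPKM in WT nodes and 40.2, 58.6, 19.8 and 10.7 in Pad2-/- nodes, with a log2 difference of -0.84 ± 0.43 (adjusted p = 0.445). Btk was 26.8, 25.2, 28.4 and 20.5 RPKM in WT and 20.1, 19.8, 19.5 and 15.7 in Pad2-/-, the only one of the 9 without overlap, with a log2 difference of -0.41 ± 0.13 (adjusted p = 0.295). Cd79a was 313, 386, 514 and 381 RPKM in WT and 329, 431, 258 and 228 in Pad2-/-, a log2 difference of -0.38 ± 0.20 (adjusted p = 0.445). The others were -0.66 (Cd22), -0.54 (Blk), -0.53 (Cd79b) and -0.20 (Blnk), whose Pad2-/- values of 44.5 to 56.2 RPKM lay inside the WT range of 45.3 to 69.4 but for 1 library.

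Without Pad2-/- lymph node replicate 2, Fcmr (-1.54, adjusted p = 0.0276) and Ms4a1 (-1.04, adjusted p = 0.0416) were lower past the threshold. That library had a neutrophil marker sum of 762 RPKM, against 3792 to 5604 in the other Pad2-/- nodes and 154 to 589 in WT nodes, and 4 of the 6 neutrophil markers passed as higher in Pad2-/- nodes. B cell marker sums were 854 to 1196 in WT nodes and 482 to 974 in Pad2-/- nodes, highest in replicate 2. No member of the other marker lists passed in lymph node. The part of the neutrophil markers in the lower values of the 9 genes was not tested. Relative to Cd79a none of the 8 genes passed (0.936% of all genes passed); Fcmr, at -0.82 ± 0.25 (adjusted p = 0.157), was the only one with an unadjusted p under 0.05, against 1721 of all genes, and it passed without replicate 2 (-0.99, adjusted p = 0.0138).

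Between the libraries labelled Pad4-/- and WT lymph nodes none of the 9 genes passed, and of all genes tested 0.00814% did. Btk (-0.32 ± 0.13) was the only one of the 9 with an unadjusted p under 0.05 (485 of all genes had one), with an adjusted p close to 1. Fcer2a was 49.9, 61.2, 48.8 and 38.3 RPKM and Fcmr 48.3, 91.4, 57.6 and 68.4 in the libraries labelled Pad4-/-, with log2 differences of 0.02 ± 0.43 and -0.24 ± 0.37. Cd79b, at 322, 290, 232 and 221 RPKM, was lower in both libraries whose Padi4 went against the label than in the others. The same held for each other gene of the 9 except Fcmr. The B cell marker sum was 730 and 753 RPKM in those libraries, against 954 and 974 in the others. The cause of this split was not tested. Without the 2 libraries whose Padi4 went against the label none of the 9 passed either. Relative to Cd79a none passed (0.212% of all genes passed, none of the 8 with an unadjusted p under 0.05, against 441 of all genes).

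**Figure D5:**
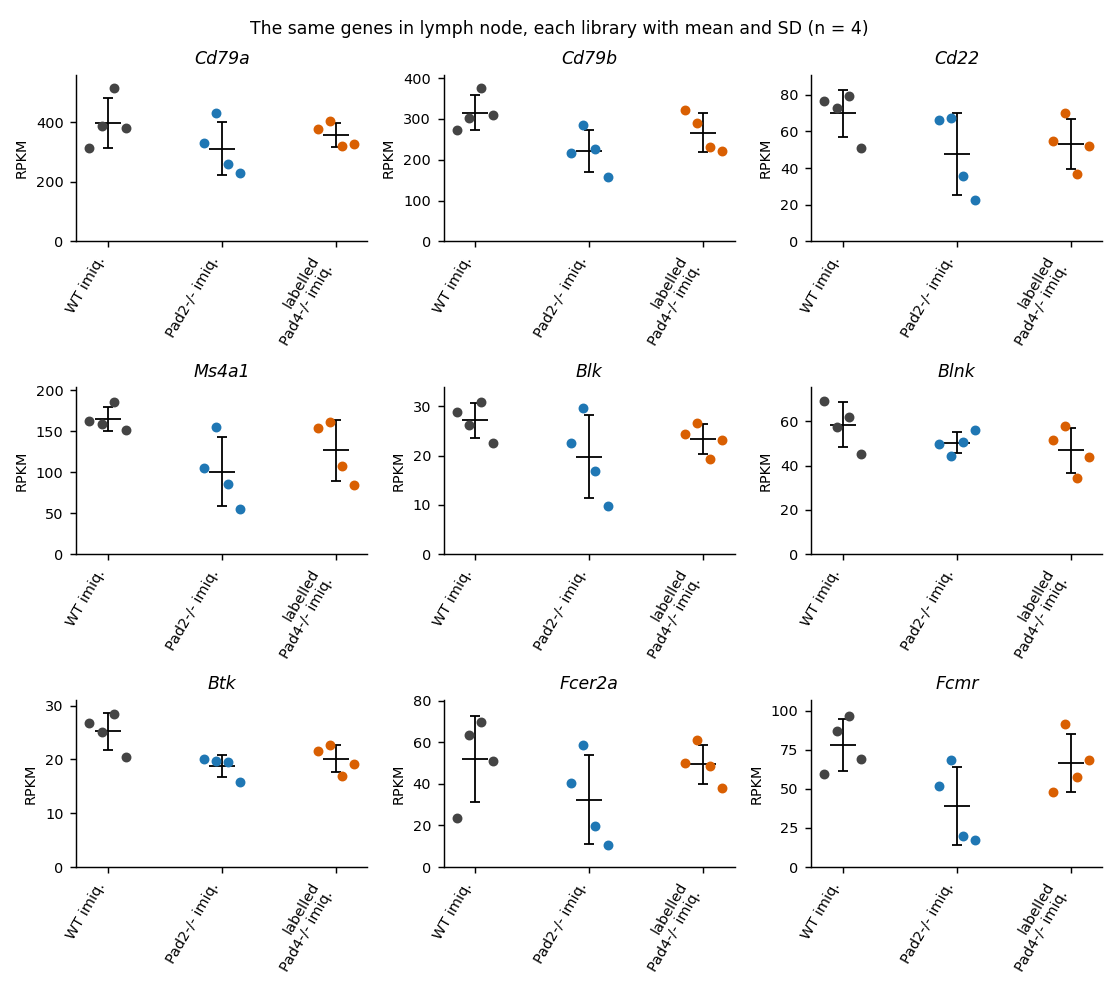
RPKM (y axis, linear from 0) of each gene in the 12 lymph node libraries from imiquimod-treated mice, in the groups WT, Pad2-/- and labelled Pad4-/-, in replicate order within a group; bar and whiskers are the mean and SD of 4 libraries. Pad2-/- libraries spread widely for Fcmr, from 17.4 to 68.2, and Btk of all Pad2-/- libraries is below the WT libraries.

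Of the other pathway genes none of the 6 lists had a member past the threshold in either lymph node comparison. In Pad2-/- nodes the estimates were negative for 2 of 2 co-receptor genes, 16 of 16 proximal genes and 7 of 7 distal genes. They were also negative for 6 of 8 inhibitory genes, 10 of 10 identity factors and 11 of 11 follicular surface genes. The list medians, in this order, were -0.23, -0.36, -0.25, -0.48, -0.40 and -0.51, against a median of -0.12 over all genes. The share of all genes with a negative estimate is not given here. The smallest p-values were those of Lyn (-0.55 ± 0.14, adjusted p = 0.123), a Src-family kinase, and Bank1 (-0.71 ± 0.21, adjusted p = 0.203). With median-ratio scaling the median of all genes moved by 0.14 on the log2 scale in this comparison, and the 9 genes kept negative estimates under each alternative run.

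Likeness was measured as the root mean square difference between a gene's centred log2 profile and the mean profile of the 9 over the libraries of a tissue. Within the 9, Cd79a was closest to that mean in spleen (0.0693 log2 units over 18 libraries) and Btk (0.458) and Fcer2a (0.373) farthest. In lymph node, over 12 libraries, Blk was closest (0.128), and Fcer2a (0.456), Blnk (0.420) and Fcmr (0.412) were farthest. Outside the 9, the genes most like the mean in spleen were Fcrl1 (0.0549), an Fc receptor-like protein of B cells, Foxo1 (0.0833), Slc25a53 (0.0900), Rabep2 (0.102) and Fcrla (0.104). In lymph node they were Fcrl1 (0.0877), Btla (0.0906), Tnfrsf13c (0.0922), the receptor for the survival factor BAFF, Pxdc1 (0.0978) and Bank1 (0.0984). All libraries of a tissue share their groups in this measure, so that it describes these samples and nothing more.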

How the data were processed

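Poly(A)-enriched RNA was measured in 18 spleen and 12 lymph node libraries. The authors deposited RPKM values, 1 table per tissue; per the submitters' processing notes, bcl2fastq 1.17.1, TopHat2 2.1.0 and mm10 were used, and the sources used here name no counting tool or strand setting. Values as small as 2.8026e-45 occur, so these are estimated abundances from which reads could not be recovered, and no counting intervals can be given because depth is unknown. An RPKM value is relative to a library's mapped reads, so very abundant transcripts, such as haemoglobin, lower all other values of that library. Where haemoglobin was left out of the totals, each library was divided by the share of its summed RPKM held by all other genes. The share of mapped reads is not known and can differ from it, so that setting may correct too much or too little.

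The filter on low values kept 11982 spleen genes (1 RPKM or more in at least 3 libraries) and 12285 lymph node genes (in at least 4). limma 3.58.1 (R 4.3.3; lmFit, contrasts, eBayes with trend) was run on log2(RPKM + 0.5), which understates the change of low genes, with all groups of a tissue in 1 fit, two-sided, Benjamini-Hochberg adjusted over all genes, threshold 0.05. The fit relative to Cd79a subtracted its log2 value in the same library from every gene. "Rose" and "fell" mean past the threshold. The tissues were not tested against each other. The code was tested on simulated data.

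The 9 genes, the lists and the naming rule (all 9; Padi2 and Padi4; up to 4 genes per list with the smallest p; the 5 most alike genes) were chosen with earlier results of these data known. Vav2, Nfatc1, Inpp5d, Id3, Fcrla and others that the rule names appear in the pathway plot only; Cd81, Lyn, Plcg2, Pik3ap1, Pou2af1, Cd9 and, between Pad4-/- and WT, Id3 and Ccr7 were named after their values were seen. Alternatives were other pseudocounts, filters, scalings, array weights, a fit of only the groups compared, a replicate block, other reference genes and leaving out libraries. Some genes of the lists, and 1 planned set of reference genes, are not reported here.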

Additional observations from a re-analysis of the deposited data

Results flagged for a closer look

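Btk in Pad2-/- lymph node replicate 4, at 15.7 RPKM, stood apart from the other 3 libraries of its group (19.5 to 20.1 RPKM): its gap to the nearest was 0.854 of the group's range, above Dixon's 95% critical value for 4 samples. Of 27 groups of 4 lymph node libraries looked at, 1 was singled out, and chance does so in about 1 of 20. Groups of 3 spleen libraries were too small for this rule.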

How the results depend on the processing

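Of the single-gene values recomputed under the alternatives, 2307 stayed on their side of the threshold and kept their direction or, without a call, stayed within 1 SE. The threshold was lost by 53 and gained by 27, 30 values without a call changed sign by more than 1 SE, and no called value changed sign. Members past the threshold between Pad4-/- and WT under imiquimod (3 of 9) were 1 with no filter on low values, 0 in a fit of only the groups compared and 9 without the 3 spleen libraries over 10% haemoglobin. Between Pad4-/- and WT controls (0) they were 2 in the fit of only the groups compared and 1 with array weights; between Pad2-/- and WT under imiquimod (0), 1 with array weights; in the Pad4-/- interaction (0), 1 with array weights and 1 without the 3 libraries. Relative to Cd79a, Pad4-/- against WT under imiquimod (2) gave 4 with Cd79b as the reference (Cd22, Ms4a1, Blnk and Btk, all lower, without Fcer2a), 0 with Pax5, Ebf1 and Spib (chosen after seeing the data), and 0 with the replicate block, and Pad2-/- against WT lymph node (0) gave 1 with the replicate block.

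Over all genes, the Pad2-/- interaction (4) gave 2 with pseudocount 0.1, 1 at RPKM of at least 5, 7 with totals without haemoglobin, 1 in the fit of only the groups compared and 1737 with array weights. The Pad4-/- interaction (8) gave 665 with array weights and 41 without the 3 libraries. Pad2-/- against WT control spleen (17) gave 9 at RPKM of at least 5, 43 in the fit of only the groups compared and 99 with array weights; Pad4-/- against WT control spleen (18) gave 1324 and 1758 in the last 2 settings. Under imiquimod, Pad2-/- against WT spleen (58) gave 38 with quantile normalization, 2 in the fit of only the groups compared, 2751 with array weights and 32 with the replicate block; Pad4-/- against WT spleen (871) gave 4 in the fit of only the groups compared and 2237 without the 3 libraries. In lymph node, Pad2-/- against WT (57) gave 15 with no filter, 28 at RPKM of at least 5, 5 in the fit of only the groups compared and 16 without the 2 doubted Pad4-/- libraries. Pad4-/- against WT (1) gave 0 with no filter, at RPKM of at least 5, with quantile or median-ratio scaling, with the replicate block and without the 2 doubted libraries, 6 in the fit of only the groups compared and 11 with array weights. The cause of these changes was not tested.

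Leaving out 1 library at a time, members past the threshold ranged from 8 to 9 (WT response), 9 to 9 (Pad2-/- response), 6 to 9 (Pad4-/- response), 0 to 3 (Pad4-/- against WT under imiquimod) and 0 to 2 (Pad2-/- against WT lymph node). Relative to Cd79a they ranged from 2 to 4 (WT response), 2 to 3 (Pad2-/-), 1 to 2 (Pad4-/-), 0 to 2 (Pad4-/- against WT under imiquimod) and 0 to 1 (Pad2-/- against WT lymph node). Over all genes the ranges were 10 to 13 and 7 to 11 (Pad2-/- and Pad4-/- against WT controls), 12 to 739 and 139 to 1507 (the same under imiquimod), 3 to 7 and 4 to 756 (interactions), and 5 to 230 and 0 to 2 (lymph node). Where a library is left out of 3, the fit pools the spread over all groups.

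Whether replicate numbers pair the samples could not be settled, since weak correlations do not exclude shared animals or batches. Of same-numbered pairs of groups, 14 of 45 in spleen and 5 of 12 in lymph node had a correlation of deviations over 0.1. Their medians were 0.0544 and -0.00587. Of differently numbered pairs, 17 of 90 in spleen and 12 of 36 in lymph node did, with medians of -0.0135 and -0.0394. With the replicate block Cd79b between Pad4-/- and WT under imiquimod had an adjusted p of 0.0602. With no read numbers, depth sets no stated limit here; 3 or 4 libraries per group do.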
